A study of Mus musculus
Mus spretus with 18 samples.

Results

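The 6 genes described here are Igf1, which encodes the hormone insulin-like growth factor 1, the receptor genes Insr and Igf1r, and the fibroblast growth factor (FGF) receptor genes Fgfr1, Fgfr2 and Fgfr3. They were taken by symbol from the tables of transcript levels and of skipped exon (SE) events, in which a cassette exon is either included between its neighbours or skipped. All 6 were found among the 38924 genes of the level table. They held 70 of the 125200 SE events, and these events concerned 52 exons: 16 in Fgfr2, 14 in Fgfr1, 7 in Fgfr3, 6 in Igf1r, 5 in Insr and 4 in Igf1.

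RNA was sequenced from F1 hybrids of a female C57BL/6J and a male SPRET/EiJ mouse, so that every cell carried an allele of each strain. Cortex, heart, kidney, lung and spleen came from 2 female animals at 8 weeks. Liver data of the same animals came from an earlier study, and the labels give the maternal strain of its libraries as C57BL/7J and C57BL/8J. Embryonic stem cells (ESC) were 2 independent clones of the hybrid. A hybrid fibroblast line received the splicing inhibitor pladienolide B (PladB) at 0.1 µM in DMSO or DMSO alone, each for 4 h. Each of the 9 groups had 2 libraries. Nothing says that the fibroblast libraries came from separate cultures, so their p-values measure only the spread between these samples, which may be technical.

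Insulin and insulin-like growth factors bind a pair of closely related tyrosine kinase receptors, and circulating Igf1 is made mainly by the liver. FGF receptors carry up to 3 immunoglobulin-like domains outside the cell, and each of these genes is known for alternative splicing of that part. A cassette exon encodes the first of these domains, a short exon encodes the acid box behind it, and a choice between the IIIb and IIIc exons sets the ligand-binding end of the domain nearest to the membrane. IIIb is the form of epithelial cells and IIIc that of mesenchymal cells. In Igf1, a cassette exon near the 3′ end sets which E peptide follows the mature hormone.

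The tissue libraries held 46558287 to 129496306 junction reads over all SE events and the fibroblast libraries 129067054 to 151755602. Reads that could be given to an allele numbered 10338947 to 46793808 per allele and tissue library. All 5 markers chosen for each of the 7 tissues had their highest level in that tissue. Of the 5 fibroblast markers, 3 were highest in the fibroblasts.

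Levels of the 6 genes differed between tissues, by less than in the median gene for Insr and by about as much or more for the others. Levels are given as TPM, transcript abundance per transcript length and library total, on which genes can be compared. In these bulk samples, fewer cells of a type and less RNA per cell cannot be told apart. Igf1 was at 148 and 184 TPM in the liver libraries and at 12.5 and 12.7 in spleen. In ESC it was at 0.0282 and 0.0146 TPM. The other tissues lay between 2.55 and 5.62 TPM, so liver stood alone at the top and ESC alone at the bottom, and lung overlapped with cortex and with kidney. The difference between liver and ESC was 10.41 on the log2(TPM + 0.1) scale, and 3.99% of the 21925 genes tested had a range between tissues at least as large.

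Insr, the insulin receptor gene, was the most even. It was at 33.1 and 35.2 TPM in heart, at 29.6 and 27.4 in liver and at 29.1 and 27.2 in kidney, where liver and kidney overlapped. Cortex followed at 22.8 and 22.6 TPM and lung at 15.2 and 15.7. Spleen, at 12 and 10.4, and ESC, at 12.8 and 9.33, overlapped at the lower end. The log2 range was 1.64, and 94.9% of the genes tested had a range at least as large.

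Igf1r, the receptor for the hormone, was highest in cortex at 26.0 and 26.8 TPM. Kidney, at 25.1 and 19.3, overlapped with ESC, at 19.4 and 9.0, and that ESC spread also reached the level of lung. In liver Igf1r was at 0.0879 and 0.123 TPM, the lowest level of any tissue and 7.02 below cortex on the log2 scale. Liver was thus the highest tissue for the ligand gene and the lowest for its receptor gene.

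Fgfr1 was also lowest in liver, at 0.635 and 0.692 TPM, and highest in ESC, at 53.5 and 43.8, with a log2 range of 5.99. The remaining tissues were ordered without overlap from cortex (30.1 and 32.2) through lung, kidney and heart to spleen (12.1 and 8.72). Fgfr2 was highest in lung at 55.1 and 58.6 TPM and lowest in heart at 1.08 and 1.18, a log2 range of 5.53. Fgfr3 had the same extremes, with 73.3 and 74.7 TPM in lung, 57.9 and 62.6 in cortex and 3.68 and 3.5 in heart, a log2 range of 4.33. Its ESC libraries, at 2.44 and 7.59, lay on both sides of the heart level. The moderated F test of limma called all 6 genes (adjusted p between 8.27e-10 and 5.55e-06), as it did 98.9% of all genes tested, so the calls do not set these genes apart.

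**Figure D1:**
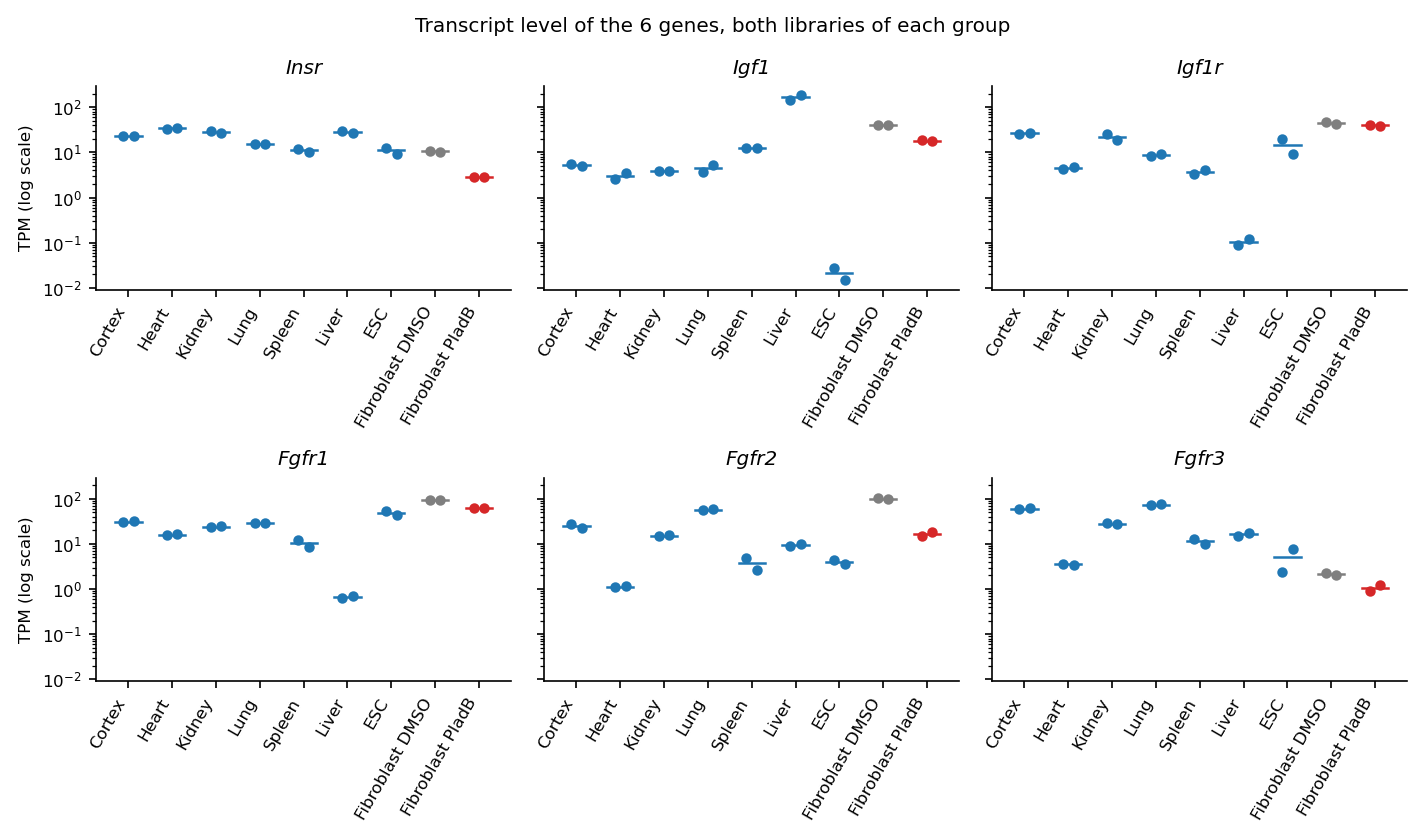
TPM on a log axis for each gene in the 7 tissues (blue) and in fibroblasts with DMSO (grey) or pladienolide B (red); points are libraries and lines are means of 2. Igf1 reached 166 TPM in liver, where Igf1r and Fgfr1 were lowest, and Fgfr2 fell from 100.4 to 16.5 TPM after pladienolide B.

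Over the 7 tissue means of log2 levels, the profiles of Fgfr2 and Fgfr3 had a Pearson r of 0.953 and those of Igf1r and Fgfr1 an r of 0.951. Igf1 and Fgfr1 had an r of -0.861. These are descriptions over 7 points that share libraries. The nearest genes among 21924 had r of 0.984 for Insr (Gpam, a glycerol-3-phosphate acyltransferase), 0.993 for Igf1r (March9), 0.994 for Fgfr1 (Gm9001) and 0.973 for Fgfr2 (A530084C06Rik). Each was picked as the highest of that many values. Even the third nearest genes of Fgfr1 (0.986), Igf1r (0.980), Fgfr2 (0.970) and Fgfr3 (0.965) were above the pairs of members, so those pairs do not stand out.

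Splicing was measured as percent spliced in (PSI), the share of the inclusion form after each form's junction reads were divided by its effective length. PSI is given where both libraries had at least 20 reads. Between tissues, 23 SE events of the 6 genes had enough reads of both forms in at least 2 tissues, and 5 were called at adjusted p under 0.05 and a range of mean PSI of at least 0.1. Over all 42604 events tested, 12.3% were called. The 5 events were the exons of the first immunoglobulin-like domain of Fgfr1, in a long and a short form, and of Fgfr2, the acid box exon of Fgfr2 and the E peptide exon of Igf1.

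The exon of Fgfr1 for the first immunoglobulin-like domain is 267 bp long (mm10 chr8:25555508-25555774, plus strand). It was included almost always in ESC (0.988 and 0.964) and in cortex (0.953 and 0.959). Kidney followed at 0.769 and 0.731, heart at 0.493 and 0.529 and spleen at 0.414 and 0.397. It was lowest in lung, at 0.295 and 0.298. These 6 tissues did not overlap, although ESC and cortex were close, and the range of 0.680 far exceeded the spread between libraries. The F test, with a dispersion moderated over all events, gave an adjusted p of 1.19e-171. It was 9.96e-05 when the event kept its own dispersion, a setting added after the data were seen. Liver gave 0.106 and 0.556 from 26 and 21 reads, a spread that covered lung, spleen and heart. A form of this exon that starts further upstream (306 bp, chr8:25555469-25555774) shares its skipping junction. It ran in the same order, from 0.976 and 0.928 in ESC to 0.162 and 0.193 in lung, and is not a separate observation.

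The corresponding exon of Fgfr2 is also 267 bp long (chr7:130242378-130242644, minus strand). Cortex stood apart at 0.696 and 0.706. Kidney was at 0.430 and 0.378, lung at 0.341 and 0.362, spleen at 0.409 and 0.253 and liver at 0.318 and 0.412, and the libraries of spleen and liver overlapped with those of kidney and of lung. The range was 0.370 (adjusted p = 2.32e-10). For both receptor genes, inclusion of this exon was thus far higher in cortex than in lung.

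The acid box exon of Fgfr2 (78 bp, chr7:130241200-130241277) showed the opposite placing of cortex. It was lowest there, at 0.415 and 0.478, and between 0.632 and 0.917 in the single libraries of the other 5 tissues tested. Heart was highest with 0.917 and 0.745, from 23 and 41 reads, and its libraries overlapped with those of kidney (0.801 and 0.732). Lung was at 0.733 and 0.745, liver at 0.667 and 0.675 and spleen at 0.632 and 0.670. The range was 0.384 (adjusted p = 1.53e-10).

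The E peptide exon of Igf1 (52 bp, chr10:87915298-87915349, plus strand) had its lowest PSI in cortex, at 0.0478 and 0.0629 from 90 and 79 reads. Lung was at 0.140 and 0.155 and kidney at 0.191 and 0.210. Spleen, at 0.271 and 0.340, overlapped with liver, at 0.321 and 0.352 from 19117 and 18988 reads. The range was 0.281 (adjusted p = 3.17e-11). This call was lost with an adjusted p of 0.275 when each event kept its own dispersion instead of the value shared over events, a setting chosen after the data were seen. The other 4 calls held in that fit, with adjusted p between 9.96e-05 and 0.0298.

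**Figure D2:**
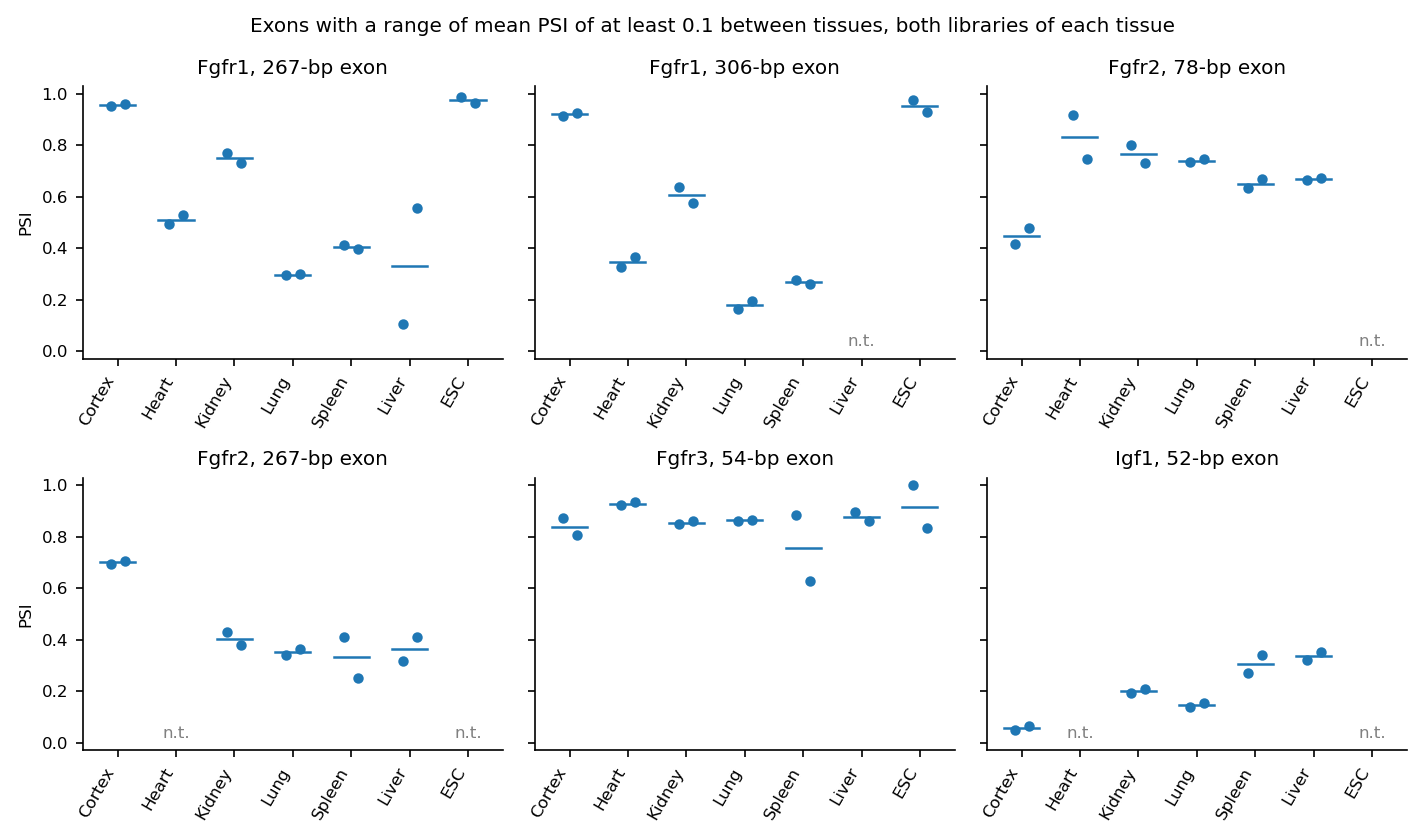
PSI, from 0 to 1, of the 6 exons whose mean PSI ranged by 0.1 or more between tissues; points are libraries, lines are means of 2, and n.t. marks a tissue that was not tested. The Fgfr1 exon ran from 0.976 in ESC to 0.296 in lung, cortex was highest for the Fgfr2 267-bp exon and lowest for the 78-bp exon, and the Fgfr3 exon was not called.

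In Fgfr3 only the exon of 54 bp (chr5:33728192-33728245, plus strand) had a range of mean PSI of at least 0.1 between tissues. It was included in most transcripts everywhere, with tissue means from 0.757 in spleen to 0.928 in heart. The spleen libraries gave 0.884 and 0.630, more than the whole range of 0.171 between tissues, and the exon was not called (adjusted p = 0.698).

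IIIb and IIIc exons are mutually exclusive, so each was measured either against transcripts that skip both or against those that use the partner. The Fgfr1 IIIb exon (151 bp, chr8:25563374-25563524) was measured against direct splicing to IIIc, and its mean PSI was between 0.0137 and 0.0241 in the 5 tissues tested. In that event IIIc is also the downstream neighbour. Junctions from IIIb to the exon after IIIc are thus not counted in it, and this PSI is not the full share of IIIb. In Fgfr2 and Fgfr3 each exon was measured against skipping of both, so the share of IIIb among the inclusion reads of IIIb and IIIc, each divided by its effective length, is given instead, as a description. In kidney, IIIb made up 78 and 62.0% of this Fgfr2 total. In liver it made up 39.7 and 51.4%, below both kidney libraries. DMSO fibroblasts had 0.352 and 0.274%, and PladB fibroblasts 0 and 0.268%. Thus the fibroblasts used IIIc almost alone. The 0 of 318 reads allows a share of up to 0.943%, from counting error only.

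For Fgfr3 the IIIb share was 38.0 and 40.9% in kidney and 40.1 and 31.8% in lung, which overlapped. The summed mean TPM of 5 epithelial markers (Epcam, Cdh1, Krt8, Krt18 and Cldn7) was 539.9 in kidney, 769.7 in lung and 379.1 in liver. In liver nearly all of it was Krt18 (187 TPM, and 54.1 in kidney) and Krt8 (169.5 and 101), while Epcam (1.09 and 155.5), Cldn7 (0.389 and 33.5) and Cdh1 (21.1 and 195.8) were far lower than in kidney. In fibroblasts it was 7.80 with DMSO and 8.79 with PladB, nearly all of it Cdh1, with Cldn7 at 0 in both groups. The sum of 5 mesenchymal markers (Vim, Col3a1, Pdgfrb, Dcn and Zeb2) was 261.4 in kidney, 1552 in lung and 171.7 in liver. In liver Dcn was at 148 TPM (119 in kidney), while Vim (10.9 and 55.8), Pdgfrb, Col3a1 and Zeb2 were lower than in kidney. The mesenchymal sum was 4758 in DMSO and 4867 in PladB fibroblasts, mostly Vim. Levels of Esrp1 and Esrp2, known splicing factors for the IIIb exon, also differed between these groups, and these genes were singled out after their values were seen. Esrp1 was at 12.6 and 12.1 TPM in kidney, at 0.0545 and 0.0493 in liver and listed at 0 in all fibroblast libraries. Esrp2 was at 38.9 and 37.7 TPM in kidney, at 55.3 and 53.2 in liver and at 0.538 and 0.712 in DMSO fibroblasts. The part of the markers or of these factors in the IIIb share was not tested.

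All other exons of the 6 genes with enough reads were nearly always included or nearly always skipped. Insr exons had mean PSI of at least 0.984 in ESC and spleen, where they had enough reads, and none had enough skipping reads in 2 tissues for a test. The Igf1r exon of 137 bp had a mean PSI of 0.996 in kidney. The alternative Insr exon that separates the A and B forms of the receptor was not among the 5 exons of that gene and is not analysed here. A 117-bp exon of Fgfr2 (chr7:130227113-130227229) was nearly always skipped, with mean PSI from 0.00781 to 0.0117.

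The alleles of the hybrid share a nucleus, so a difference in PSI between them addresses divergence in cis between the strains. No exon of the 6 genes was called between alleles. Over the 9 groups, 62 comparisons of events from 23 exons were tested, 0 were called, and 5 had an unadjusted p under 0.05. A second quasi-binomial fit, with a dispersion prior robust to outlying events, also called 0. Calls over all events made up 5.13% in kidney, 4.7% in cortex, 4.6% in lung, 4.17% in heart, 3.72% in liver, 3.49% in spleen and 1.14% in ESC, at depths that differed between the groups. In fibroblasts they were 4.2% with PladB and 4.74% with DMSO. Both alleles were counted in the same libraries, and a fit with the library as a block called 0 of all events in 8 groups and 1 in liver. A difference that was not called is not shown to be absent.

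Differences of 0.1 or more were measured in 6 comparisons. The nearest to a call was the Fgfr3 54-bp exon in kidney. Its PSI was 0.913 and 0.868 on the C57BL/6J allele against 0.775 and 0.697 on the SPRET/EiJ allele, so the alleles did not overlap and the difference was 0.155 (adjusted p = 0.0779). When p-values were adjusted only over events with PSI between 0.1 and 0.9, its adjusted p was 0.0265 and the exon was called. In lung the same exon differed by 0.0664 in the same direction (0.848 and 0.893 against 0.794 and 0.814). The C57BL/6J allele was also higher in both libraries of liver (0.863 and 0.917 against 0.860 and 0.746, difference 0.0869) and of cortex (0.844 and 0.826 against 0.828 and 0.684, difference 0.0792). In spleen it went the other way by -0.159, but the libraries themselves were far apart (0.822 and 0.525 against 1 and 0.664, from 35 to 62 reads). The test of whether its allelic difference varied between tissues gave an adjusted p of 0.787.

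In cortex, the 306-bp form of the Fgfr1 exon was at 0.923 and 0.937 on the C57BL/6J allele and at 0.796 and 0.827 on the SPRET/EiJ allele, a difference of 0.119 (adjusted p = 0.102). The 267-bp form differed by 0.0503 in the same direction (0.963 and 0.971 against 0.914 and 0.920). In ESC both forms were also higher on the C57BL/6J allele in both clones, by 0.0472 and 0.103 for the 306-bp and by 0.0181 and 0.0413 for the 267-bp form. Neither form was apart in kidney, where the differences of the libraries had opposite signs. In lung the 267-bp form was lower on the C57BL/6J allele in both libraries (0.242 and 0.225 against 0.268 and 0.293, adjusted p = 0.306). The 306-bp form differed there by -0.00491. In spleen the 267-bp form was higher on the C57BL/6J allele, by 0.0148 and 0.114, and in heart its libraries had opposite signs. The Fgfr2 267-bp exon in cortex was at 0.609 and 0.625 on the C57BL/6J allele and at 0.768 and 0.714 on the other, a difference of -0.124 (adjusted p = 0.332). In ESC, the 48-bp exon of Fgfr1 differed by 0.132 and its IIIc exon by 0.107, each through few skipping reads on the SPRET/EiJ allele, 9 of 50 reads in a single library for the former (adjusted p = 0.505 and 0.559).

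The difference between alleles was tested for change across tissues in 11 events, of which 0 were called (0.127% of all events), and for change with PladB in 13 events, of which 0 were called (0.0674% of all events). The lowest adjusted p was 0.727 across tissues and 0.619 with PladB, and in each test 1 event had an unadjusted p under 0.05 and the fit with the robust prior called 0.

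**Figure D3:**
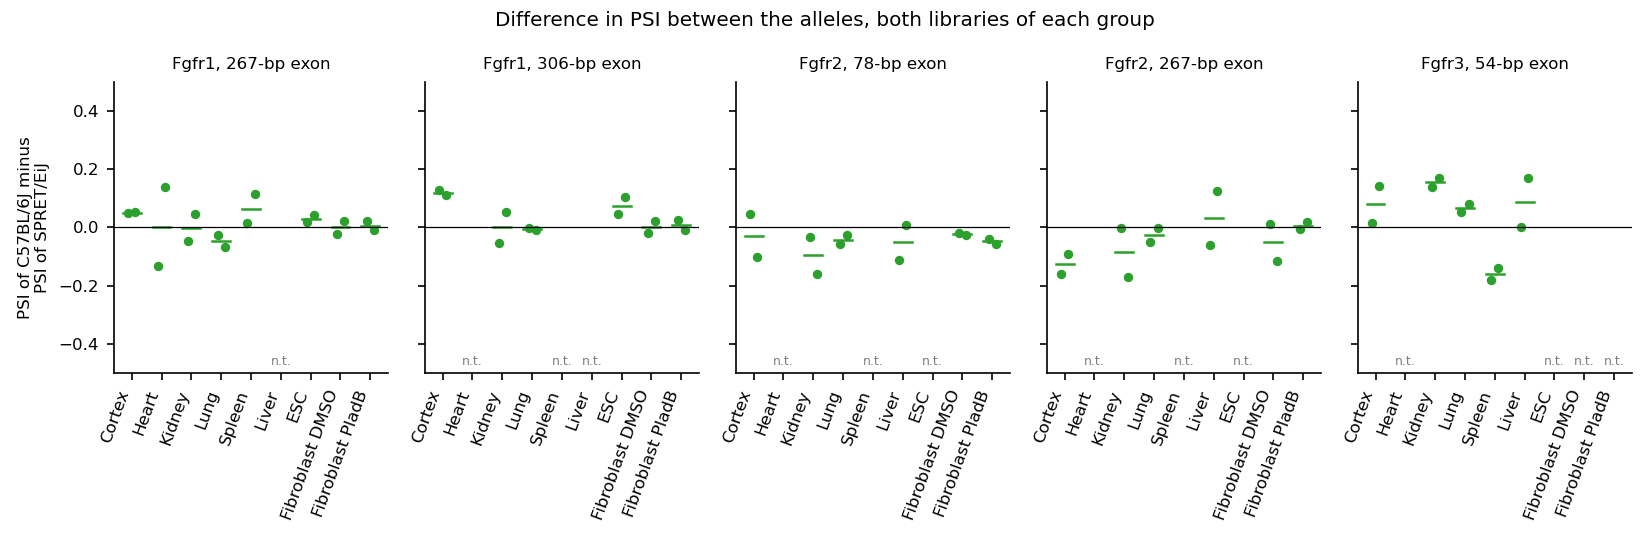
Allelic difference in PSI in each group, with positive values where the C57BL/6J allele was higher; points are libraries, lines are means of 2, the zero line marks equal PSI, and n.t. marks groups not tested. Both kidney libraries lie above zero for the Fgfr3 exon (mean 0.155) and both spleen libraries below (mean -0.159), and none of the differences was called.

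Pladienolide B binds the SF3B complex of the spliceosome. After treatment 5 of the 6 genes fell in TPM and Igf1r was not called. Over all 13577 genes tested, 9963 (73.4%) fell, 2124 rose and the median change was -1.15 on the log2 scale, so a fall as such was the common outcome. After quantile normalization 6049 fell and 5538 rose, with a median of -0.06. TPM is a share of each library's total, so no change can be read as one in RNA per cell.

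Fgfr2 fell most, from 102.5 and 98.2 TPM with DMSO to 15.2 and 17.9 with PladB. The change was -2.60 on the log2(TPM + 0.1) scale (SE 0.09, adjusted p = 7.94e-06), and 16.1% of genes fell as much. Insr fell from 10.9 and 10.2 to 2.81 and 2.88 TPM, a change of -1.85 (SE 0.07, adjusted p = 1.14e-05). Both genes changed by more than the median gene, but 32.6% of genes fell as much as Insr.

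Igf1 fell from 39.9 and 41.1 to 18.4 and 17.8 TPM, close to the median gene (change -1.16, SE 0.05, adjusted p = 1.27e-05). Fgfr3, low at 2.27 and 2.07 TPM with DMSO, was at 0.896 and 1.2 with PladB (change -0.99, SE 0.17, adjusted p = 0.00363). Fgfr1 fell from 95.5 and 91.6 to 62.6 and 63.3 TPM (change -0.57, SE 0.04, adjusted p = 0.000101), less than the median gene. Igf1r was at 47.0 and 42.0 TPM with DMSO and at 40.6 and 38.2 with PladB, groups that did not overlap (change -0.17, SE 0.07, adjusted p = 0.0705). Without DMSO replicate 2 the change of Igf1r was -0.26 and passed the test. When the libraries were set to the same distribution by quantile normalization, only the falls of Fgfr2 (-1.82) and Insr (-0.23) remained, Fgfr3 changed by 0.31 and Igf1r by 0.73 in the other direction, of which only that of Igf1r passed, and Igf1 and Fgfr1 did not pass.

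The junction reads of Fgfr2 were lost unevenly along the gene. The ratio of PladB to DMSO, relative to all junction reads of the libraries, was -1.81 on the log2 scale at the first exon counted, with 315 and 454 reads against 1479 and 1388. At the last one, 94.3 kb downstream, it was -4.09, with 238 and 337 reads against 5205 and 5235. In between, the 6 exons of the first 42.9 kb were between -2.23 and -1.81 and the 8 exons from 63.5 kb on between -4.09 and -2.53. The last exon differed from the first by -2.28, and 3.13% of 5973 genes with the same measure had a difference as low or lower. The median over these genes was -0.17, and 70.6% were lower at the last exon.

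Insr had the same direction over 3 exons, from -0.43 at the first (68 and 87 reads against 132 and 95) to -2.06 at the last, 48.2 kb away (36 and 49 against 211 and 170). Its difference of -1.63 was reached by 6.90% of genes. Igf1r went from 0.50 at its first exon to -0.26 at the last, 211 kb away, a difference of -0.76 that 17.9% of genes reached. In Igf1 the ratio went from -0.21 to -0.32 and in Fgfr1, which was counted over 17.3 kb, from -0.45 to -0.18. The ratios are given as descriptions with no test.

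**Figure D4:**
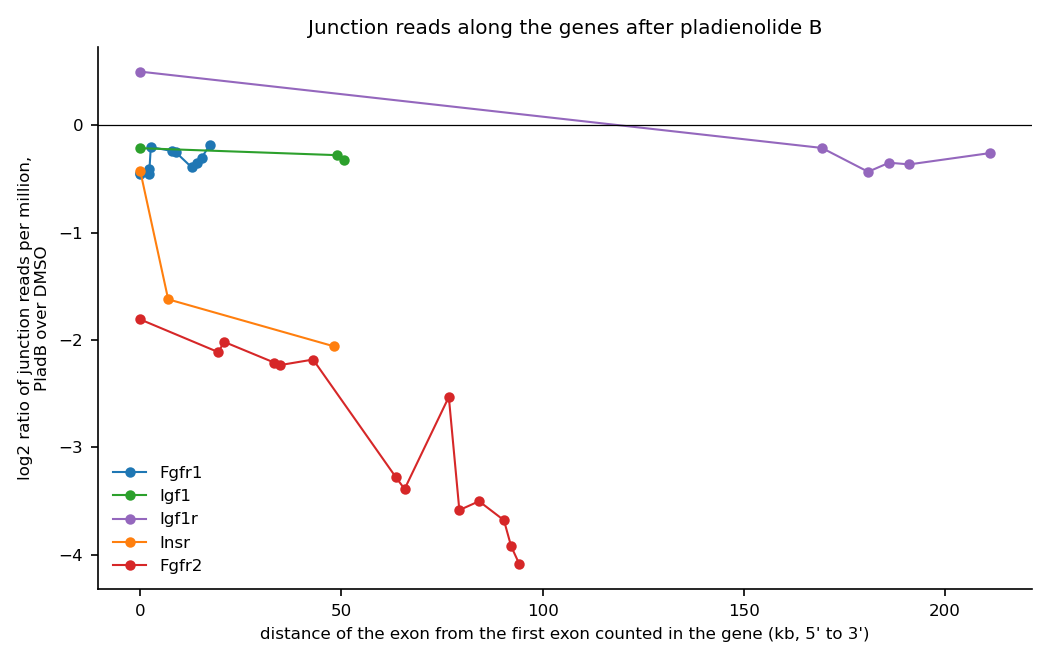
Log2 ratio of junction reads, PladB over DMSO with both libraries summed and scaled to all junction reads, against the distance of each exon in kb from the first exon counted in its gene. Fgfr2 drops from -1.81 to -4.09 along the gene, Insr from -0.43 to -2.06 and Igf1r from 0.50 to -0.26. Fgfr1 and Igf1 stay between -0.45 and -0.18.

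Most SE events of Fgfr2 had a lower mean PSI with PladB. Its 27 events with 20 reads or more in every fibroblast library and at least 1 read of the rarer form were compared. Of these, 25 were lower with PladB and 2 higher, and over all genes 74.3% of 54535 such events were lower. Events with no skipping read with DMSO could only be lower, so these counts are partly fixed in direction. They were 11 events with enough reads for a test and the untested events of the 152-bp, 318-bp and 71-bp exons, the last between its nearest neighbours. A test needed 5 reads of the rarer form. Of the 20 Fgfr2 events that met this, 11 had no skipping read with DMSO, so that they passed only through the PladB libraries and could only be lower. Of the 7 events with 5 skipping reads in the DMSO libraries alone, 4 were lower and 0 higher at adjusted p under 0.05, and over all genes 16.9% of 15785 such events were lower. Events that share an exon or a skipping junction are not separate observations. Among the 4, those of the 78-bp, 124-bp and 170-bp exons rest on the same skipping reads. With a change of 0.1 or more, 3 of the 20 events were called, and 14.7% of all 30586 events tested were.

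The called exon of 203 bp (chr7:130196172-130196374) was never skipped in 1636 and 1713 reads with DMSO. With PladB it was skipped in 5 of 120 and 12 of 182 reads, at a PSI of 0.920 and 0.876 (change -0.102, adjusted p = 0.00373), and with no skipping read in DMSO its direction was fixed by the limit on rarer reads. The other called events were the 78-bp and 170-bp exons between the same outer neighbours, and they rest on the same skipping reads, 29 and 17 with PladB against 9 and 15 with DMSO. The 78-bp exon was at 0.709 and 0.857 against 0.975 and 0.959 (change -0.184, adjusted p = 0.020) and the 170-bp exon at 0.701 and 0.877 against 0.974 and 0.955 (change -0.175, adjusted p = 0.0380). Leaving out PladB replicate 1 moved the change of the 78-bp exon to -0.110 and that of the 170-bp exon to -0.0873, leaving out replicate 2 moved them to -0.258 and -0.263, and no event of any gene was called without a fibroblast library. Between its nearest neighbours, where it had the most reads, the 78-bp exon was at 0.679 and 0.618 with PladB and at 0.676 and 0.682 with DMSO, which overlapped (adjusted p = 0.232). The 170-bp exon between its nearest neighbours was skipped in 0 of 685 and 0 of 888 reads with PladB and had a PSI of 0.999 in both DMSO libraries, and it had too few skipping reads for a test.

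The exon of the first immunoglobulin-like domain of Fgfr2 was at 0.205 and 0.227 with PladB and at 0.308 and 0.302 with DMSO, without overlap (change -0.0891, adjusted p = 0.0136). The same exon of Fgfr1 was at 0.182 and 0.187 against 0.181 and 0.178 (change 0.00521, adjusted p = 0.480) from 2493 to 4219 reads per library. None of the 8 Fgfr1 events passed the test, and their changes lay between -0.00284 and 0.00521. The difference between the changes of these exons was not tested.

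Of the 4 Igf1r events, the 145-bp exon (chr7:68173231-68173375) was lower, from 1 and 1 with DMSO to 0.979 and 0.970 with PladB (change -0.0254, adjusted p = 0.0122), a direction that was also fixed by the absence of skipping reads in DMSO. The Igf1 E peptide exon was at 0.262 and 0.272 with PladB and at 0.241 and 0.235 with DMSO. These did not overlap, but the change of 0.0290 was not called (adjusted p = 0.0690). Insr exons had too few skipping reads for the test. Its 245-bp exon (chr8:3163237-3163481) had 2 skipping reads in each PladB library, of 36 and 49 reads, and none among 211 and 170 with DMSO. Both retained intron events of the 6 genes lie in Fgfr3. The intron of 1782 bp had 4 reads in a PladB library, and that of 83 bp had 20 to 67 reads per library but only 4 retention reads, all in a PladB library, so neither was tested.

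**Figure D5:**
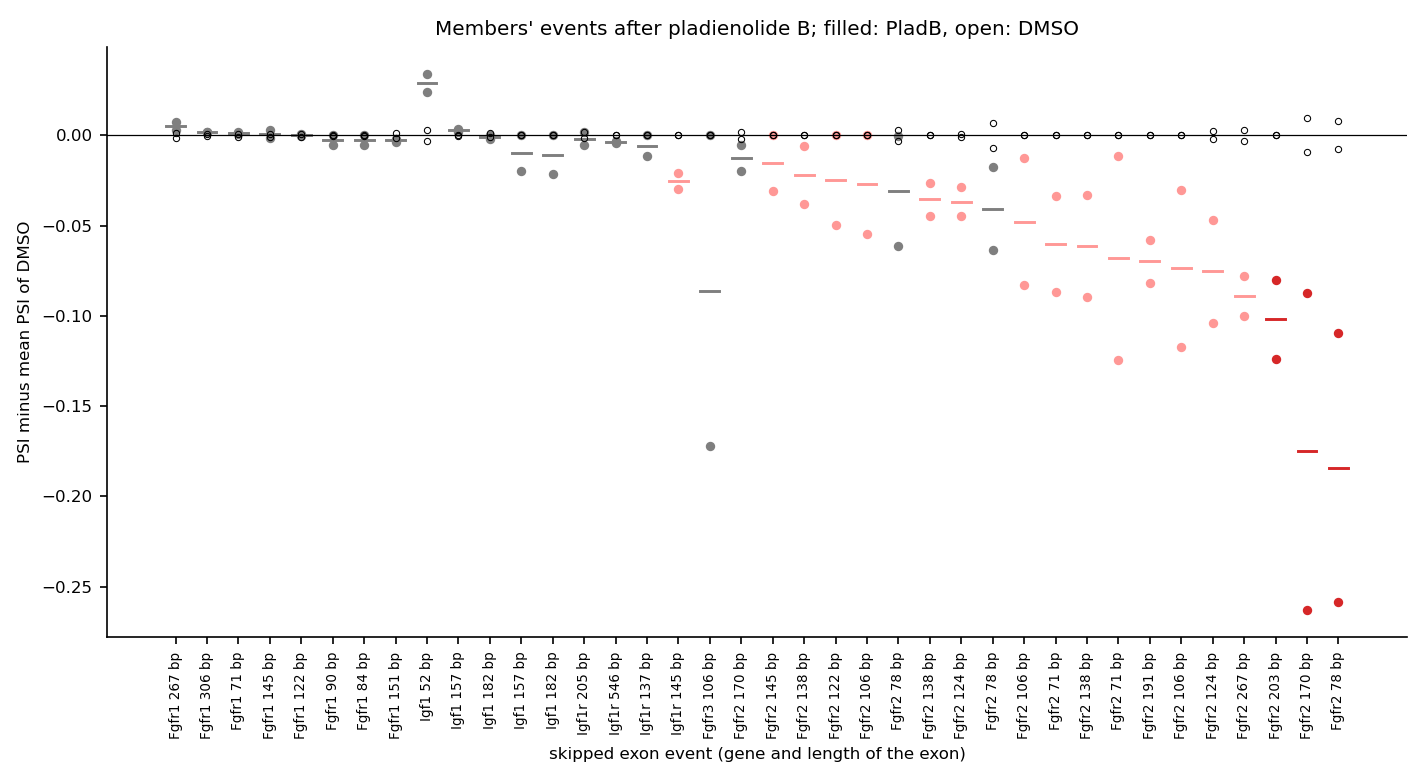
PSI of each tested SE event minus the mean PSI of the DMSO libraries, with PladB libraries as filled and DMSO libraries as open points and lines at the mean of 2 PladB libraries. Dark red marks the 3 called events, light red those with adjusted p under 0.05 and a change below 0.1, and grey the rest; the Fgfr2 changes run from -0.0127 to -0.184, and 11 of its 20 events had no skipping read with DMSO and could only lie below zero.

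Other genes of these pathways were taken from lists of ligands, receptors, adaptors and splicing factors, and their counts stand beside 73.4% of all genes that fell after PladB and the median change of -1.15. Of 12 ligands and binding proteins of the insulin and IGF pathway, 8 were tested in fibroblasts, of which 5 rose and 3 fell after PladB (median log2 change 0.49). Igf2, a growth factor that also binds Igf1r, rose from 304 and 312 to 457 and 461 TPM, and Ghr, the growth hormone receptor, fell from 40.2 and 40.3 to 19.5 and 19.8. Of the 17 receptors and adaptors tested in that pathway, 15 fell and 0 rose (median -1.78), among them Pik3cb, a catalytic subunit of PI3 kinase, with a change of -3.06.

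All 4 FGF ligand genes tested fell (median -1.51), among them Fgf10, a ligand of the IIIb form of Fgfr2, from 77 and 79.2 to 21.7 and 21.9 TPM. Of 14 FGF receptors other than the members, co-receptors, adaptors and inhibitors tested, 9 fell and 3 rose (median -0.84). Between tissues, where 12.3% of all events were called, 16 of 72 events of the insulin receptors and adaptors were, from 5 of 14 genes. None of 11 events of the insulin and IGF ligand list was called, while 1 of 3 FGF ligand events and 4 of 29 events of the list with the FGF co-receptors, adaptors and inhibitors were, the latter in 4 of 10 genes. After PladB, where 14.7% of all events were called, 11 of 33 events of the last list and 13 of 89 of the insulin receptors and adaptors were called. Of 15 splicing factors known to act on Insr or on the IIIb and IIIc exons, 13 were tested after PladB, 12 fell and 1 rose (median -1.11), and 27 of their 95 events, in 12 of 15 genes, were called between tissues. After PladB 8 of their 107 events were called.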

How the data were processed

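Stranded RNA-seq of 18 libraries in 9 groups of 2 was used. Reads were trimmed to equal length and mapped by the authors with HISAT2 2.0.1 to C57BL/6J (mm10) and to a SPRET/EiJ genome, given to the closer allele, and counted over junctions with rMATS. The deposited tables hold inclusion and skipping junction counts per library and effective lengths of both forms, a score written by rMATS. TPM were deposited by the authors from fragment counts per gene (featureCounts), split where genes overlap. The authors' PSI levels, PSI differences, p-values and FDR columns were not used.

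PSI was computed from counts divided by effective lengths. Shares were tested by a quasi-binomial F test over all autosomal events with at least 20 reads per library (and allele) and 5 of the minor form. Dispersions were moderated with squeezeVar of limma 3.58.1 (R 4.3.3) along read depth with a floor of 1, and p-values were adjusted by Benjamini-Hochberg. Events were called at adjusted p under 0.05 and a difference of 0.1. Alleles were compared only where PSI from allelic and all reads differed by 0.1 or less. TPM were tested with limma-trend on log2(TPM + 0.1) for genes at 1 TPM or more in 2 libraries, called between tissues at a log2 range of at least 1. Named exons differed by 0.1 or more in some comparison or are known alternative exons, the event with the most reads standing for an exon. The 3 genes most like a member and up to 3 examples per list could be named, the largest changes first, and some of these genes are not reported here. The 6 genes, the 5 gene lists and 12 marker lists were chosen with earlier results of these data known. On simulated counts the test of 2 against 2 libraries made nearly no false calls but missed most changes of moderate size, and in ESC it found none of the changed events between alleles. The simulated counts were drawn independently for each allele and library, at the moderated dispersions. They thus do not cover alleles that share a library or events whose own dispersion is larger.

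Alleles of a library share it: deviations from group means correlated at above 0.1 in 8 of 9 groups (-0.00299 to 0.709).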

Additional observations from a re-analysis of the deposited data

How the results depend on the processing

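The 5 tissue calls were kept with a replicate block, another depth or minor-read limit, a prior without depth trend and without each library in turn, and with each event's own dispersion (chosen after seeing the data) 4 were kept, while calls over all events went from 5259 to 2538. The 0 calls between alleles held in all settings that gave a test, except that 1 of 36, the Fgfr3 exon in kidney, was called when only events with PSI between 0.1 and 0.9 were adjusted for; over all events the library block left 1 of 4238 calls. Across tissues, calls over all events went from 35 to 2 with the block and to 16 to 53 without a library; with PladB they went from 8 to 4 at 50 reads, to 0 with the block or without a library, and to 25 with a robust prior. That prior (squeezeVar with its robust option), chosen after seeing the data to lower the number of missed changes, left the members' counts at 5, 0 and 3. After PladB, the replicate block left 1 of the 3 called events, 4 of the 17 Fgfr2 events and 0 of 1 Igf1r event at adjusted p under 0.05, and over all genes 2382 of 4508 calls and 3502 of 10935 events at that p, and leaving out a library left 0 and 0, lowest and highest alike, so those fits say nothing about stability; without a PladB library the change of the 170-bp exon was -0.0873 or -0.263. Equal replicate numbers of tissues and fibroblasts did not deviate together: 0 of 21 tissue pairs correlated above 0.1, and the fibroblast pair had 0.0443. With quantile normalization, 2 genes fell in place of 5, Fgfr3 changed by 0.31 and Igf1r by 0.73. The Fgfr3 fall was also lost with no filter on low values, and Igf1r passed with the block and without DMSO replicate 2 (-0.26). The cause of these changes was not tested. The planned edgeR test with a term for each library was not run because the junction counts come as lists in a cell. Leaving out a library between alleles leaves no spread for a test.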

Other observations

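Junction reads assigned to an allele gave the share of each gene's reads that came from either strain, at the exon with the most such reads. For Igf1 the C57BL/6J share was 66.9 and 65.3% in liver, 67.0 and 64.5% in spleen and 64.0 and 60% in kidney. In fibroblasts it was 16.0 and 10.9% with DMSO and 10.9 and 13.8% with PladB, from 81 to 109 reads per library and at another exon than in the organs. At that exon, of 182 bp, liver had 398 and 442 C57BL/6J reads against 245 and 309 SPRET/EiJ reads. Median shares over all genes were between 50.1 and 50.6% in the 9 groups, and the 5th percentile was 27.9% in DMSO fibroblasts. All 4 fibroblast shares of Igf1 lay below the 5th percentile of their group, and its shares in kidney, spleen and liver lay between the 5th and 95th percentiles.

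The Fgfr2 124-bp exon had C57BL/6J shares of 52.7 and 52.3% in DMSO fibroblasts and of 40.9 and 38.9% after PladB, groups that did not overlap. The change was -12.6 percentage points, and 8.62% of 5625 genes with the same measure changed as much in either direction. The median size over these genes was 3.23 points. Igf1r changed by -5.94 points, Igf1 by -1.14 and Fgfr1 by -1.03. The exons of Fgfr2 did not all give such a share after PladB. Its 318-bp exon had 226 and 313 C57BL/6J reads against 89 and 140 SPRET/EiJ reads. Its 78-bp exon had 218 and 315 against 298 and 423, and with DMSO 1487 and 1463 against 1220 and 1190. Reads are not molecules, and the share of the 124-bp exon rests on 726 to 3796 allelic reads at a single exon. Its change is thus given as a value without a test.

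In ESC, Fgfr3 shares were 48.6 and 14.5% from 37 and 69 reads, with a single library per clone. Heart gave 71.4 and 77.3% for Fgfr3 from 63 and 44 reads, both above the 95th percentile of 69.8% there. Fgfr2 shares in spleen were 41.5 and 23.6% from 94 and 55 reads, the second below the 5th percentile of 33.8%. Insr shares in ESC were 67.4 and 68.0%.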
